A study of Mus musculus with 24 samples.

Results

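The microRNAs mmu-miR-1a-3p, mmu-miR-133a-3p, mmu-miR-133b-3p and mmu-miR-206-3p, best known from striated muscle, were followed over the tissues of the mouse eye. They were taken by name and not by a measured value, although earlier results of these data were known. They are 4 of the 1881 miRNAs with probes on the arrays. The series was made to compare tissues of eyes with lens-induced myopia with those of normal eyes, and holds 24 arrays of 1 color, 1 for each of 8 tissues in each of 3 lens groups. The tissues are cornea, iris, lens, retina, choroid (named RPE/choroid in the study's methods), sclera, and the samples labeled SCN and LGN, whose abbreviations the labels do not spell out. All mice were C57BL/6J, and the methods describe them as males. Control arrays hold tissues of right eyes that never wore a lens, and lens-induced arrays those of right eyes on which a lens of -30 D was fixed at 3 weeks of age and kept for 3 weeks. The 0D arrays are labeled as eyes with a lens of 0 D, and the methods do not describe them further. For the ocular tissues of the control and lens-induced groups, equal amounts of RNA from 3 mice were mixed for each array, so that no array stands for a single animal and no spread between animals was measured. The 8 arrays of each lens group shared a slide of their own, and the effects of slide and lens wear cannot be told apart.

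MiRNAs are short RNAs that guide a silencing complex to messenger RNAs, mostly by pairing of the seed near their 5′ end. In muscle, miR-1 favors differentiation, and the miR-133 miRNAs are made from the same primary transcripts as miR-1 and miR-206 and are best known for acting on the proliferation of muscle precursors. MiR-1 and miR-133a are made in heart and skeletal muscle, whereas miR-206 and miR-133b are mainly known from skeletal muscle. The striated muscles that move the eye insert on the sclera, while the iris, the ciliary body and vessel walls contain smooth muscle.

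For 2 of the 4 miRNAs the mature sequence was found in the RefSeq annotation of the build GRCm38.p6, and it is shown because their genes lie beside each other and the seeds set their target families apart. The sequences run 5′ to 3′, and capitals mark the seed, bases 2 to 8.
mmu-miR-206-3p: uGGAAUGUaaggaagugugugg
mmu-miR-133b-3p: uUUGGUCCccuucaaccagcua
The first lies at chr1:20679055-20679076 in Mir206 and the second at chr1:20682834-20682855 in Mir133b, both on the plus strand. The hairpins of these genes are separated by 3686 bases. Of these neighbors, mmu-miR-133b-3p was detected on all 24 arrays and mmu-miR-206-3p on 4. The counts come from different probes and do not compare the expression of the 2 genes.

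A miRNA was detected when the signal of a probe lay above 3 times its error, and its signal is the sum over such probes, an intensity without a unit. Between 129 and 249 miRNAs were detected per array, which is 6.86% to 13.2% of those on the array, and the number of arrays limits the precision. For comparison between arrays, each array was multiplied by a factor that made the 75th percentile of 79 miRNAs, those found on every array, the same. The log2 scale factors were highest for the crystalline lens, at 1.27 to 1.66, against 0.02 to 0.22 for the sclera. In the tests, a signal that was not detected or fell under 9.93, the highest of the arrays' lowest detected signals, was set to this floor. The tissue labels were checked with lists of miRNAs. The retina list was highest in the retina arrays, with summed scaled signals of 24751 to 27634, and the surface epithelium list in the cornea, with 31344 to 38563. All 6 miRNAs of the brain list were detected on every SCN and LGN array. Other sums did not follow the labels in this way. The brain list summed to 10381 to 11618 in the retina, above 2258 to 2751 in the SCN and 3379 to 4254 in the LGN. The pigment cell list was highest in the lens, at 1227 to 1377. The connective tissue list reached 2992 to 3218 in the SCN and 2490 to 3029 in the sclera.

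MiR-133b was the most widely detected of the 4, and its scaled signal was highest in the lens, next highest in the sclera and lowest in the retina and SCN. In the order control, 0D and lens-induced, the scaled signal of mmu-miR-133b-3p was 354.9, 325.3 and 340.2 in the lens and 78.5, 169.6 and 133.4 in the sclera. In the choroid it was 44.6, 70.2 and 68.8, in the cornea 41.5, 57.7 and 49.1, and in the iris 41.9, 45.5 and 45.6. No array of another tissue reached those of the lens, and every sclera array lay above every array of the choroid, cornea and iris. In the LGN it was 17.7, 24.5 and 17.8, in the SCN 12.4, 4.26 and 4.84, and in the retina 8.18, 7.74 and 7.37. All retina arrays and 2 of the 3 SCN arrays lay under the floor, so that they have no order in the tests.

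MiR-133a followed the same order of tissues. The scaled signal of mmu-miR-133a-3p was 315.3, 266.6 and 298.3 in the lens and 58.4, 115.6 and 96.8 in the sclera. It was 29.1, 46.8 and 49.3 in the choroid, 31.8, 37.5 and 33.0 in the cornea and 27.6, 29.8 and 31.3 in the iris. The lens arrays again lay above all others, and the control sclera, the lowest of the sclera arrays, still lay above the brightest choroid array. In the LGN the values were 15.6, 17.3 and 16.5, in the retina 6.37, 5.65 and 5.38, and in the SCN it was detected on the control array only, at 9.84. The miRNAs miR-133a and miR-133b are near-identical in sequence, and whether their probes tell them apart was not tested.

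The scaled signal of mmu-miR-1a-3p was 69.0, 77.7 and 65.3 in the lens, 15.6, 39.3 and 23.97 in the sclera and 15.0, 21.2 and 14.4 in the iris. In the choroid it was 10.2, 14.0 and 14.2. The lens arrays stood above all others, but the control array of the sclera lay within the range of the iris arrays. It was not detected in any retina or SCN array, and in the LGN it was detected at 4.23, 6.16 and 4.09, under the floor. In the cornea it was detected at 22.8 on the 0D array and 13.9 on the lens-induced array, and not on the control array, where its probes at 3 errors would sum to 24.6. That missing call therefore does not place the control cornea below the other corneas.

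MiR-206, the member most closely tied to skeletal muscle, was near the limit of the arrays. The scaled signal of mmu-miR-206-3p was 18.1 ± 4.83, 16.7 ± 4.03 and 14.8 ± 4.83 (probe error) in the lens, and it was otherwise detected only on the 0D sclera array, at 5.90 ± 1.96. All 4 detected signals lay a little above 3 errors. After scaling, the lens was brighter by at least 3.02-fold than the iris, at least 2.85-fold than the retina and at least 2.62-fold than the LGN. It was brighter by at least 2.02-fold than the choroid and at least 1.98-fold than the SCN. These bounds set the undetected tissue at 3 errors of its probes, or at the array's lowest detected signal where that was higher. They depend on the scaling, with log2 scale factors of 1.27 to 1.66 in the lens and -1.01 to -0.43 in the iris. Before scaling, the lens signals were 6.92, 6.96 and 4.69, and the 0D sclera signal of 5.07 lay within their range. On every array that did not detect it, the limit at 3 errors of its probes lay above these lens signals. Before scaling, the lens is therefore not shown to exceed any other tissue. No p-value is given, since mmu-miR-206-3p passed the detection filter only through the lens arrays and lay at the floor in all other tissues, which fixed its call. For the cornea no fold can be given, since the limit there, 15.9 to 24.2, lay about as high as the signal in the lens.

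**Figure D1:**
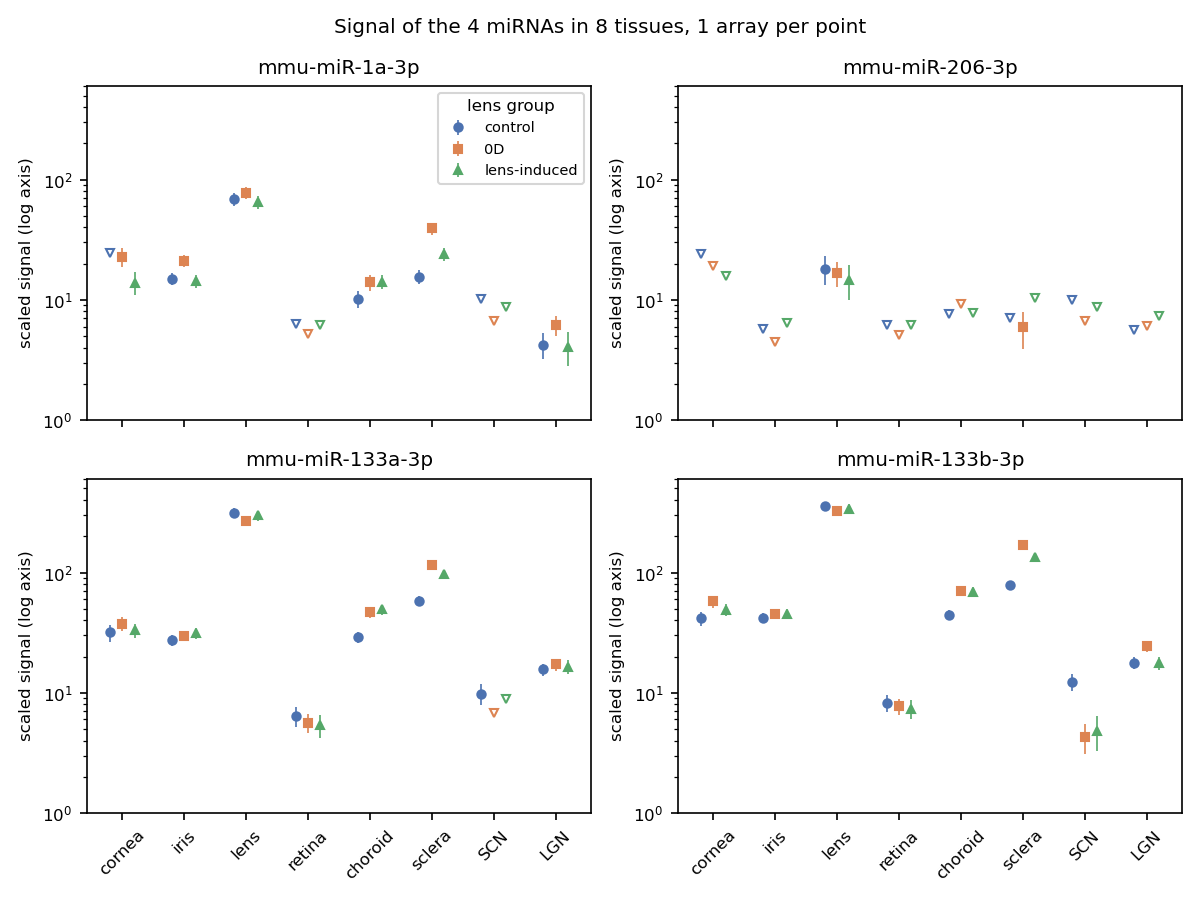
Scaled signal of the 4 miRNAs (log axis, no unit) in 8 tissues, with 1 point per array and the probe error as bars. Open triangles mark arrays where the miRNA was not detected, at their limit. The lens arrays are the highest of each filled series, and the sclera arrays are the next highest for mmu-miR-133a-3p and mmu-miR-133b-3p.

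Whether the sclera differed from the other tissues was tested with limma, with tissue and lens group as terms, where the 3 arrays of a tissue serve as replicates although they differ in lens group. P-values then measure only the spread between arrays of mixed RNA, and the residual also holds any lens effect that differs between tissues. Such differences between tissues were the rule on these arrays, since 281 of 306 miRNAs tested (91.8%) differed among the 8 tissues. The members mmu-miR-1a-3p, mmu-miR-133a-3p and mmu-miR-133b-3p were among them, as was mmu-miR-206-3p, whose call the filter fixed. Against the mean of the other 5 ocular tissues, the log2 scaled signal in the sclera was higher by 1.07 ± 0.14 (SE) for mmu-miR-133a-3p, with an adjusted p of 2.72e-06. For mmu-miR-133b-3p it was higher by 1.18 ± 0.15, with an adjusted p of 4.23e-06. The difference for mmu-miR-1a-3p was 0.41 ± 0.17, with an adjusted p of 0.0494, at the threshold. These 3 of 4 members stand beside 29.4% of all miRNAs called higher in the sclera, while mmu-miR-206-3p, at the floor on all sclera arrays, was called lower, at -0.15, beside 33.7% of all miRNAs, a difference that comes from the lens alone. The median log2 difference over all 306 was 0.00, against 0.74 over the members. In this contrast mmu-miR-1a-3p stands at the floor on the control cornea array and all retina arrays. Its call was lost without the 0D slide (0.19, adjusted p = 0.334) and without the lens-induced slide (0.40, adjusted p = 0.245), and quantile normalization turned its sign (-0.21).

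Against each tissue by itself, the sclera was called higher for mmu-miR-133a-3p and mmu-miR-133b-3p in all comparisons except that with the lens. Sclera over choroid, its neighbor in the eye wall, was 2.13-fold for mmu-miR-133a-3p, 2.02-fold for mmu-miR-133b-3p and 1.94-fold for mmu-miR-1a-3p, with adjusted p-values of 0.00012, 0.000839 and 0.00345 in limma. In that comparison 14.4% of all miRNAs were called higher in the sclera. Without scaling, the log2 differences between sclera and choroid shrank from 1.09 to 0.53 for mmu-miR-133a-3p, from 1.01 to 0.45 for mmu-miR-133b-3p and from 0.95 to 0.39 for mmu-miR-1a-3p, and only the first was still called. Sclera over cornea was 2.55-fold for mmu-miR-133a-3p and 2.47-fold for mmu-miR-133b-3p, where 30.7% of all miRNAs were called higher in the sclera. No fold is given for mmu-miR-1a-3p, since the limit of the control cornea array, 24.6, lay above the control sclera signal of 15.6. Sclera over iris was 2.94-fold for mmu-miR-133a-3p, 2.73-fold for mmu-miR-133b-3p and 1.48-fold for mmu-miR-1a-3p, beside 25.5% of all miRNAs. The last of these, with an adjusted p of 0.0488, turned its sign without scaling, where the log2 signal of the iris was higher by 0.23. The same 3 members were called higher in the sclera than in the retina, the SCN and the LGN, where 31.4%, 33.7% and 33.0% of all miRNAs were called higher. For mmu-miR-1a-3p the sclera signal was at least 4.19-fold that of the retina and at least 2.92-fold that of the SCN.

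After scaling, choroid, cornea and iris followed the sclera for mmu-miR-133a-3p and mmu-miR-133b-3p, and neighbors in this order did not differ beyond the spread, with adjusted p-values of 0.309 and 0.463 for the first and 0.31 and 0.805 for the second. Of all miRNAs, 43.1% differed between cornea and choroid and 45.8% between cornea and iris. This order depended on the scaling. Before scaling, the cornea arrays read 16.1 to 21.9 for mmu-miR-133a-3p and the iris arrays 40.0 to 60.0, with no overlap, and cornea minus iris was -1.27 for mmu-miR-133a-3p and -1.33 for mmu-miR-133b-3p on the log2 scale, with adjusted p-values of 2.06e-05 and 8.45e-05 in limma. The scaled signal of the iris exceeded that of the LGN by 0.84 and 1.17 on the log2 scale for these miRNAs, beside 23.2% of all miRNAs. For mmu-miR-1a-3p, iris, cornea and choroid followed the sclera without a called difference between neighbors, with adjusted p-values of 0.736 and 0.599, where 1 cornea array has only a limit. Its choroid signal was at least 2.17-fold that of the retina, where it was not detected. In bulk tissue, fewer muscle cells and less RNA per muscle cell cannot be told apart. Whether muscle cells are the source of these signals was not tested. Of the other lists in the sclera, all 8 connective tissue miRNAs were detected on each of its 3 arrays, with summed signals of 2490 to 3029. All 8 were also detected on each iris and choroid array, and the SCN sums were 2992 to 3218, so that this list does not single out the sclera. The smooth muscle list, of which 1 of 4 was detected, summed to 24.1 to 39.9 in the sclera.

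The lens, which contains no muscle, was the brightest tissue for mmu-miR-1a-3p, mmu-miR-133a-3p and mmu-miR-133b-3p after scaling. The log2 signal in the lens exceeded that in the sclera by 1.75 ± 0.17 for mmu-miR-133a-3p, 1.49 ± 0.20 for mmu-miR-133b-3p and 1.52 ± 0.22 for mmu-miR-1a-3p, with adjusted p-values of 9.76e-08, 3.99e-06 and 1.06e-05 in limma. In this comparison 23.9% of all miRNAs were called higher in the lens. This result depended on the scaling, whose factors were largest for the lens arrays. Without scaling the differences were 0.45, 0.19 and 0.22, with adjusted p-values of 0.0693, 0.721 and 0.618, so that lens and sclera were not told apart for these 3. Before scaling, mmu-miR-133b-3p read 135.4, 135.3 and 108.0 in the lens and 77.4, 145.7 and 119.2 in the sclera. The ranges of these arrays overlap, and the brightest array before scaling was a sclera array for mmu-miR-133b-3p, a lens array for mmu-miR-133a-3p and mmu-miR-206-3p, and an iris array, at 42.7, for mmu-miR-1a-3p. Quantile normalization kept the differences between lens and sclera, at 1.74, 1.39 and 1.75.

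On the lens arrays no miRNA of the smooth muscle, blood cell and endothelium lists was detected. Of the retina list 3 of 5 were detected on all 3 lens arrays, with summed scaled signals of 236, 627 and 817 in the control, 0D and lens-induced lens, and of the brain list 2 of 6, with sums of 136 to 409. Of the connective tissue list 2 of 8 were, with sums of 107 to 168, and the striated muscle list summed to 686 to 757. Of the surface epithelium list 1 of 4 was, with sums of 11130 to 16390, and of the pigment cell list 2 of 2, with 1227 to 1377. Sums of different lists come from different probes and have no order. The part of the scale factor in the lens values was not tested beyond these settings. The share of miRNAs detected was also lowest in the lens, with 129 to 149 miRNAs per array.

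**Figure D2:**
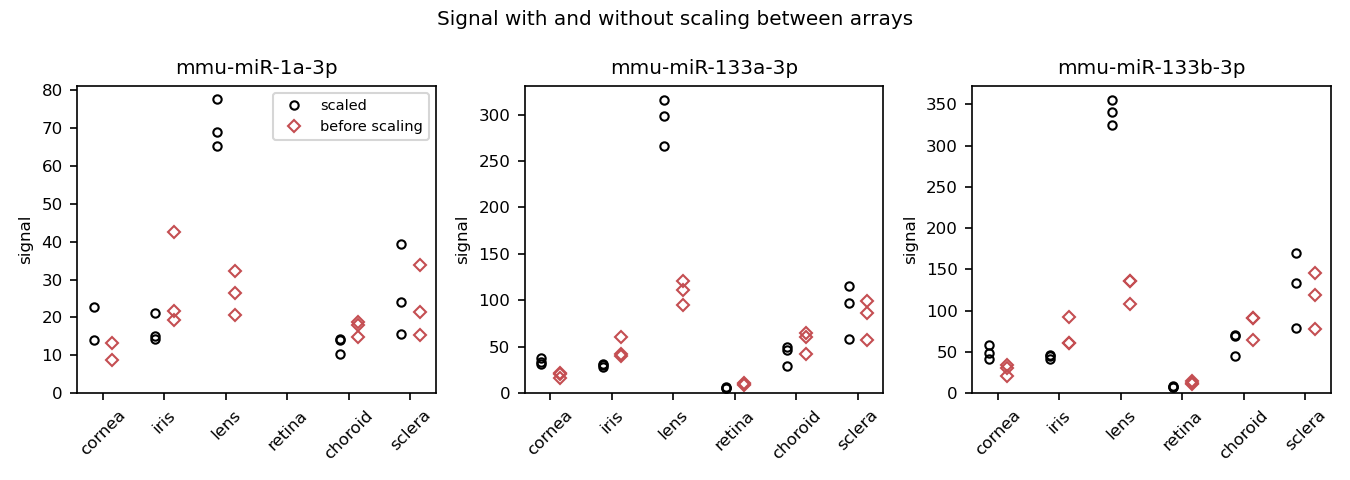
Signal of 3 of the miRNAs in the 6 ocular tissues (linear axis, no unit), with 1 point per array where it was detected. Black circles are scaled signals and red diamonds are the same sums before scaling. The lens stands apart in the scaled signals only, whereas the sclera lies near the lens before scaling.

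The choice of scale does not enter a difference between 2 miRNAs on the same array, which can be compared between tissues although the level of 1 probe cannot be set against that of another. The log2 signal of mmu-miR-1a-3p minus that of mmu-miR-133b-3p was -1.66 to -1.10 in the iris and -1.82 and -1.34 on the 2 cornea arrays that detected both. It was -2.48 to -2.11 in the sclera, -2.38 to -2.07 in the lens, -2.33 to -2.12 in the choroid and -2.12 to -1.99 in the LGN. The values of the iris arrays and of these 2 cornea arrays thus lay above all others, whereas sclera, lens and choroid overlapped. The lowest iris and cornea values, -1.66 ± 0.23 and -1.82 ± 0.35, overlapped in error with the highest LGN value, -1.99 ± 0.31. The control cornea has no value, since mmu-miR-1a-3p was not detected there, so the cornea as a whole is not placed. This is a description, with no test. Of the tissues, the iris also had the highest sum of the smooth muscle list, 319 to 331, while that list was not detected in the cornea, and the part of smooth muscle in the iris values was not tested. The log2 signal of mmu-miR-133a-3p minus mmu-miR-133b-3p was -0.29 to -0.17 in the lens, -0.55 to -0.43 in the sclera and -0.61 to -0.55 in the iris. The lowest lens value, -0.29 ± 0.19, overlapped in error with the highest sclera and iris values, -0.43 ± 0.19 and -0.55 ± 0.21. The LGN, at -0.50 to -0.11, spanned the lens values. It was -0.62 to -0.48 in the choroid, -0.62 to -0.38 in the cornea, -0.46 to -0.36 in the retina and -0.33 ± 0.37 on 1 SCN array.

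**Figure D3:**
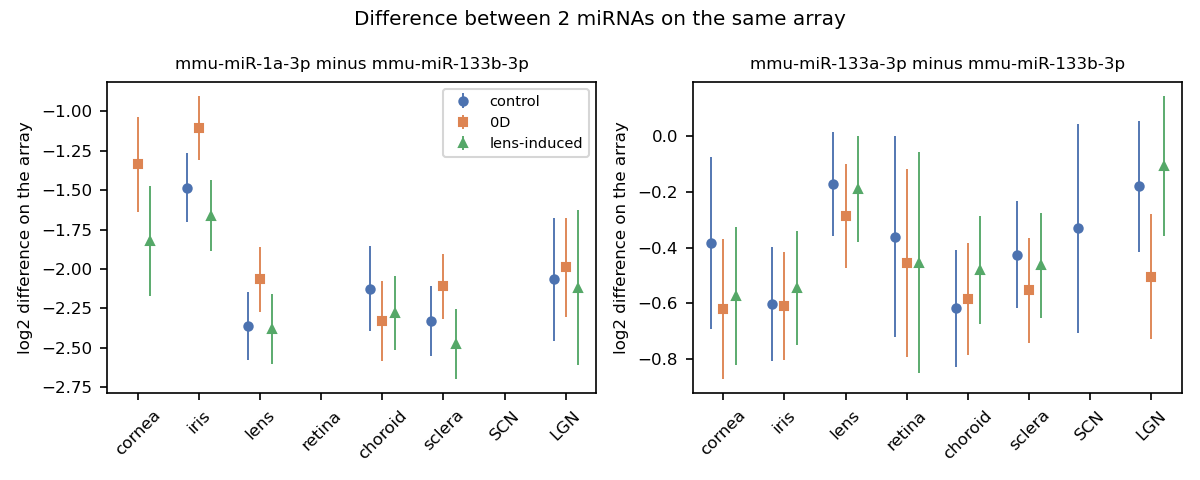
Log2 difference between 2 miRNAs on the same array, by tissue, with 1 point per array that detected both and the propagated probe error as bars. The iris and cornea points lie above the others for mmu-miR-1a-3p minus mmu-miR-133b-3p, between -1.82 and -1.10, and the control cornea has no point there.

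Each member was read by 2 probes with 15 spots each, and no spot of a member was saturated. The second probe was dim and above 3 errors on 9 arrays for mmu-miR-133a-3p, 13 for mmu-miR-133b-3p and 0 for the other 2, so that mmu-miR-1a-3p and mmu-miR-206-3p rest on a single probe. Where both probes were detected, the bright probe read 8.50- to 10.6-fold the dim one for mmu-miR-133a-3p and 6.31- to 8.33-fold for mmu-miR-133b-3p.

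Among the relatives on the arrays, none that is tied to striated muscle alone was detected. The list holds 16 miRNAs, of which 15 had probes: the passenger arms and copies of the members, miR-208a, miR-208b and miR-499, which come from introns of myosin heavy chain genes, and miR-486. Of these, 14 were detected on 0 arrays. The exception was mmu-miR-486a-5p, known from muscle and red blood cells, which was detected on the SCN and LGN arrays only, at scaled signals of 8.39, 5.33 and 6.60 in the SCN and 3.74, 4.12 and 4.07 in the LGN. These signals lie under the floor.

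The 5 other miRNAs whose log2 signal was most like the mean of the 4 members over the 24 arrays were mmu-miR-7047-5p (Pearson r = 0.93), mmu-miR-3960 (0.92), mmu-miR-8110 (0.91), mmu-miR-6769b-5p (0.91) and mmu-miR-365-3p (0.90). All 5 had their highest mean scaled signal in the lens and their next highest in the sclera. For mmu-miR-7047-5p the mean was 525.2 in the lens, 66.6 in the sclera and 63.1 in the cornea. The points share tissue and scale factor, and r is given as a description.

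Whether a lens on the eye changed the miRNAs in all tissues alike was tested with the tissue as a block, over 8 tissues per lens group. The tissues of a lens group share a slide, and the methods describe 3 mice for each of the control and lens-induced groups. Intervals and p-values here treat the tissues as independent and measure the spread between tissues, not between animals. None of the 4 members was called in any of the 3 contrasts. For lens-induced minus control, the log2 differences were 0.22 (95% interval -0.01 to 0.44) for mmu-miR-133a-3p, 0.17 (-0.09 to 0.43) for mmu-miR-133b-3p and 0.18 (-0.11 to 0.47) for mmu-miR-1a-3p, with adjusted p-values of 0.721, 0.752 and 0.752. In that contrast 0% of all 306 miRNAs were called by limma, and 25 had an unadjusted p under 0.05. For 0D minus control, the differences were 0.24 (0.01 to 0.47) for mmu-miR-133a-3p, 0.30 (0.04 to 0.56) for mmu-miR-133b-3p and 0.46 (0.17 to 0.74) for mmu-miR-1a-3p, with adjusted p-values of 0.381, 0.313 and 0.153 beside 0.654% of miRNAs called. The signal of mmu-miR-1a-3p was higher on the 0D array in the iris, lens, choroid and sclera, and equal, at the floor, in 3 tissues. In the cornea the control array, with its limit of 24.6, was set to the floor and counts as lower. An exact sign-flip test over the tissues gave a two-sided p of 0.0625, the smallest it can give with 5 differences, and without the cornea the mean difference was 0.35, with a p of 0.125, again the smallest possible. Without scaling its difference of 0.59 was called, with an adjusted p of 0.0284. For lens-induced minus 0D, the differences were -0.02 (-0.25 to 0.20), -0.13 (-0.38 to 0.13) and -0.28 (-0.56 to 0.01) for mmu-miR-133a-3p, mmu-miR-133b-3p and mmu-miR-1a-3p, beside 0.327% of miRNAs called.

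Within single tissues, with 1 array per lens group and therefore no test, the ratios of 3 members to control were above 0 in the sclera and the choroid for both lens-wearing groups. In the sclera, the log2 ratio of 0D to control was 1.33 ± 0.24 for mmu-miR-1a-3p, 0.98 ± 0.19 for mmu-miR-133a-3p and 1.11 ± 0.19 for mmu-miR-133b-3p, where ± is the error within the arrays. For lens-induced over control the ratios were 0.62 ± 0.25, 0.73 ± 0.19 and 0.77 ± 0.19. All 3 miRNAs were thus higher on both lens-wearing sclera arrays than on the control array. By the study's criterion of a ratio above 2 on arrays that both detect the miRNA, mmu-miR-1a-3p and mmu-miR-133b-3p met it in the 0D sclera, beside 8.06% of all miRNAs. Before scaling, the ratio of mmu-miR-133b-3p was 1.88-fold and did not meet it, and that of mmu-miR-1a-3p was 2.19-fold. No member met it in the lens-induced sclera, beside 13.0%. The criterion also takes a miRNA detected on 1 of the 2 arrays, and mmu-miR-206-3p met it in this way in the 0D sclera. Undetected signals were set to 0.1 for this ratio, which fixed the outcome. The limit of the control sclera, 7.07, lay above the 0D signal of 5.90, so the control array is not shown to be lower.

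In the choroid, the log2 ratio of lens-induced to control was 0.47 ± 0.30 for mmu-miR-1a-3p, 0.76 ± 0.21 for mmu-miR-133a-3p and 0.63 ± 0.19 for mmu-miR-133b-3p. For 0D over control it was 0.45 ± 0.31, 0.69 ± 0.22 and 0.66 ± 0.19. No member met the criterion in the choroid, where 1.90% of miRNAs were called higher for 0D and 4.13% for lens-induced. In the lens, by contrast, the log2 ratios for the 4 members lay between -0.30 and 0.17, each within 2 errors of 0.

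Relative to the control arrays, the retina list went the other way from the members in the sclera and the choroid. The summed signal of the retina list, of which 4 of 5 miRNAs were detected on all sclera arrays, was 1681, 788 and 845 in the control, 0D and lens-induced sclera, while the striated muscle list summed to 152.5, 330.3 and 254.2. In the choroid the retina list, with all 5 detected, summed to 2428, 1738 and 1389, and the striated muscle list to 83.9, 131.0 and 132.4. Where the muscle sum was low, on the control arrays, the retina sum was high in both tissues. The photoreceptor and sensory miRNA mmu-miR-183-5p alone read 658.1, 252.7 and 327.2 in the sclera. Of the neuronal miRNAs in the list, mmu-miR-124-3p read 587.2, 346.5 and 321.0 there, whereas mmu-miR-9-5p was not detected. The connective tissue list summed to 3029, 2948 and 2490 in the sclera and to 2010, 1947 and 1953 in the choroid. The part of retinal carry-over, and of carry-over from the extraocular muscles, in the ratios of the members was not tested.

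**Figure D4:**
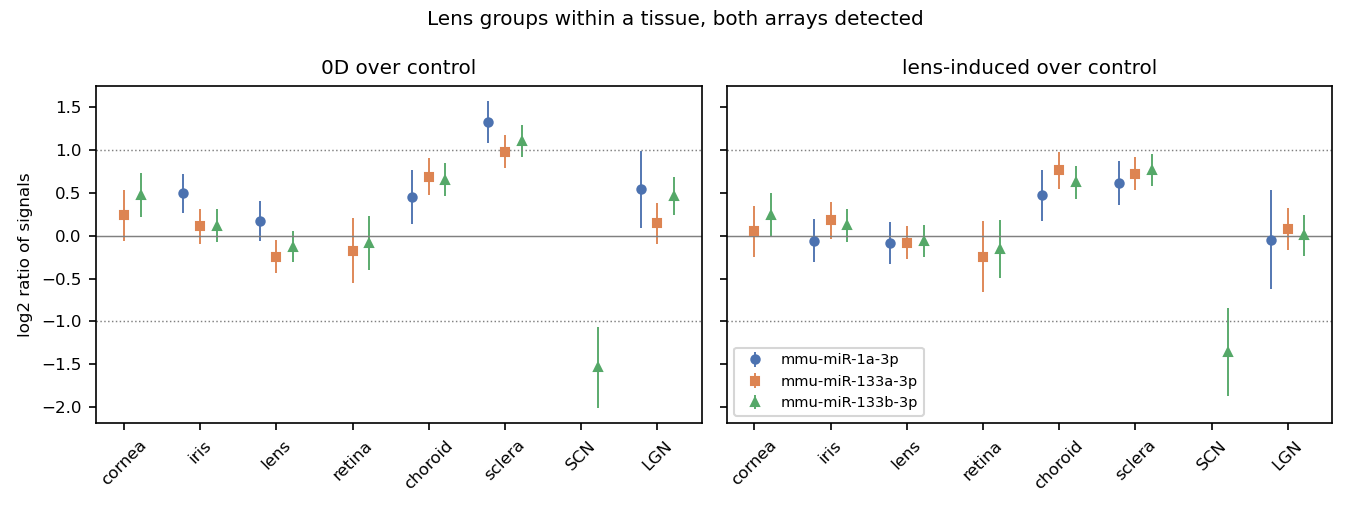
Log2 ratio of signals of 3 miRNAs between lens groups within a tissue, for 0D over control (left) and lens-induced over control (right), with 1 array on each side and the propagated probe error as bars. Dotted lines mark a 2-fold ratio. Points of the sclera and choroid lie between 0.45 and 1.33, those of the lens near 0, and the SCN point of mmu-miR-133b-3p lies under -1 in both panels.

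**Figure D5:**
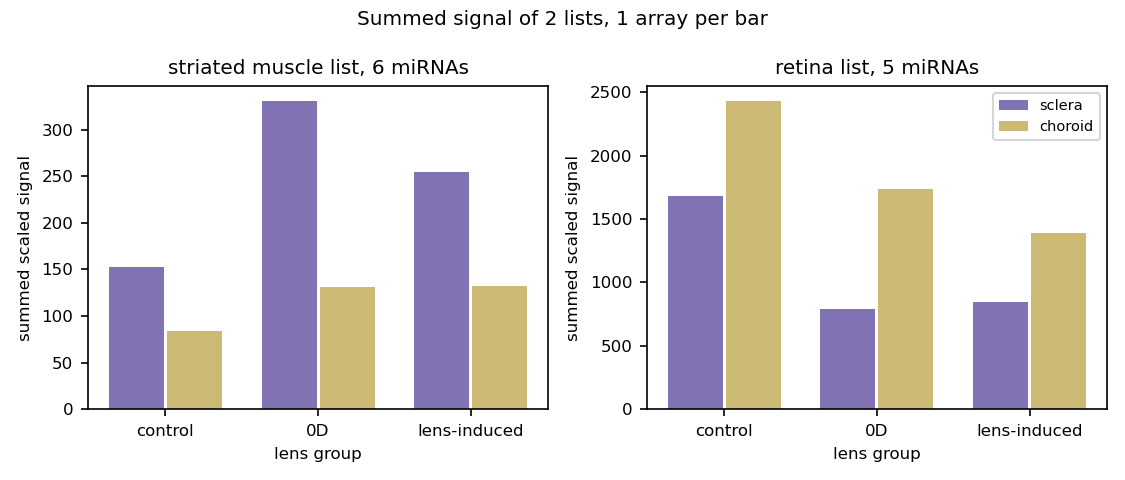
Summed scaled signal of the striated muscle list and the retina list in the sclera and the choroid (linear axes from 0), with 1 array per bar. In both tissues the control array has the lowest muscle sum, 152.5 and 83.9, and the highest retina sum, 1681 and 2428.

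In the cornea, iris, retina and LGN, no ratio to control on arrays that both detect a member met the criterion, beside 0% to 7.69% of all miRNAs called in 1 direction. By detection on 1 array, mmu-miR-1a-3p met it as higher in the 0D and the lens-induced cornea, although the limit of the control cornea, 24.6, lay above both signals. The log2 ratios ranged from -0.24 for mmu-miR-133a-3p in the lens-induced retina to 0.54 for mmu-miR-1a-3p in the 0D LGN. In the SCN, mmu-miR-133b-3p was lower than on the control array, by a log2 ratio of -1.54 ± 0.47 for 0D and -1.36 ± 0.52 for lens-induced, and met the study's criterion in both. Beside it, 5.51% and 2.97% of miRNAs were called lower there. Before scaling the log2 ratios were -0.65 and -0.98 and did not meet it, and the log2 scale factors of the SCN arrays ranged from -0.53 to 0.36. These ratios rest on signals of 4.26 and 4.84, a little above 3 errors, and mmu-miR-133a-3p, detected on the control array of the SCN only, met the criterion as lower by detection on 1 array.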

How the data were processed

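Per the labels, 100 ng of total RNA per sample was labeled with Cy3 and measured on arrays designed after miRBase 21. The authors made the deposited intensity values with Feature Extraction 10.7.1.1, which subtracts the background and gives each probe a total signal with an error. The total printed per miRNA in these files differed from the sum over its own detected probes on 17 of 17, 4 of 4, 13 of 22 and 11 of 24 detecting arrays for mmu-miR-1a-3p, mmu-miR-206-3p, mmu-miR-133a-3p and mmu-miR-133b-3p. The excess equaled the total printed for another miRNA, within 0.02, in every such case. The sums were therefore computed anew. The deposited table named normalized was not used, since the group letters of its 24 value columns are not in the labels.

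Sums were scaled by the 75th percentile over 79 miRNAs, floored at 9.93 and taken to log2. Of 352 miRNAs detected on at least 3 arrays, 46 were at the floor on every array and left out, and 306 were tested with limma 3.58.1 in R 4.3.3, with an intensity trend and Benjamini-Hochberg adjustment within each contrast. In simulated data with 100 miRNAs changed 4-fold, 100 were recovered with 2 false calls for the contrast of the sclera with the other ocular tissues, and likewise for lens-induced minus control. The simulated signals had independent errors and no floor or slide effect, and the change was larger than those of the members between lens groups. The simulation therefore checks the code and does not give the power or error rate for the members. The miRNAs named are the 4 members, 16 listed relatives where detected, and the 5 miRNAs most like the members by Pearson r, while those of the tissue lists were named by hand. Members, relatives and lists were chosen with earlier results of these data known. Alternatives were no scaling, quantile normalization, other values for undetected miRNAs, all probes, the printed totals, other detection filters, no trend, no lens group term, leaving out a slide or a tissue, ocular tissues only, an exact sign-flip test and normexp with an offset of 50. Leaving out the lens arrays, and the cornea in the sign-flip test of mmu-miR-1a-3p, were added after the data were seen. Tables were handled in pandas 2.3.3 and numpy 2.4.6 under Python 3.11.15, exact tests run with scipy 1.17.1, and plots drawn with matplotlib 3.10.9.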

Additional observations from a re-analysis of the deposited data

Results flagged for a closer look

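Between control and lens-wearing arrays, mmu-miR-133b-3p moved one way in some tissues and the other way in the SCN, each by more than 2 propagated errors. For 0D over control, the log2 ratio was higher than in the SCN by 2.65 in the sclera, 2.19 in the choroid and 2.01 in the LGN. For lens-induced over control it was higher by 2.12 in the sclera and 1.98 in the choroid. Before scaling these gaps fell to 1.57, 1.14 and 1.43 for 0D and to 1.61 and 1.47 for lens-induced, and the SCN ratios, -0.65 and -0.98, were then within 2 errors of 0. The tissues have 1 array per lens group, so that the difference was not tested, and the SCN signal of the lens-wearing arrays lay under the floor. The comparisons share the SCN arrays, and those of 0D and lens-induced share the control arrays.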

How the results depend on the processing

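The higher level of mmu-miR-133a-3p and mmu-miR-133b-3p in the sclera than in the mean of the other ocular tissues was called under each alternative except those named here, with values of 0.41 to 1.67 and 0.53 to 1.73. With undetected miRNAs at 0.1 it was 1.23 for mmu-miR-133a-3p and no longer called. The totals printed in the files gave -0.51 for mmu-miR-133a-3p, -0.29 for mmu-miR-133b-3p and -0.43 for mmu-miR-1a-3p, and these totals contain the signal of another miRNA by their construction. Without 1 slide the difference ranged from 0.89 to 1.30 for mmu-miR-133a-3p, from 0.98 to 1.42 for mmu-miR-133b-3p and from 0.19 to 0.63 for mmu-miR-1a-3p. For mmu-miR-1a-3p the call was also lost with all probes summed (0.41), miRNAs detected on at least 1 array (0.41), no intensity trend (0.41), no lens group term (0.41), ocular tissues only (0.41) and normexp (0.16), and quantile normalization gave -0.21. No scaling called 0D minus control for mmu-miR-1a-3p (0.59), and 2 in place of 4 ratios of members between lens groups within a tissue met the study's criterion, of which only mmu-miR-1a-3p for 0D over control in the sclera was among the 4, the other being mmu-miR-1a-3p for lens-induced over 0D in the iris (-1.14). Apart from the printed totals, the cause of these changes and of those that follow was not tested.

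Signs that turned without scaling were those of iris minus sclera (0.23) and cornea minus choroid (-0.97) for mmu-miR-1a-3p, cornea minus iris for mmu-miR-133a-3p (-1.27) and mmu-miR-133b-3p (-1.33), and retina minus SCN for mmu-miR-133b-3p (0.84). With quantile normalization, cornea minus iris turned for mmu-miR-1a-3p (0.0706) and mmu-miR-133b-3p (-0.0927). Under normexp, cornea minus sclera (0.33), cornea minus iris (0.95), lens-induced minus control (-0.0232) and 0D minus control (-0.0029) turned for mmu-miR-1a-3p, and 0D minus control (-0.0345), lens-induced minus 0D (0.0511) and cornea minus choroid (0.60) for mmu-miR-133a-3p, as did cornea minus choroid (0.52) for mmu-miR-133b-3p. With undetected miRNAs at 0.1, lens-induced minus control (-0.64) and 0D minus control (-0.61) turned for mmu-miR-133a-3p, cornea minus choroid (-1.999) for mmu-miR-1a-3p and retina minus SCN (0.29) for mmu-miR-133b-3p. At the lowest signal of the array, mmu-miR-133a-3p turned for lens-induced minus control (-0.0871), 0D minus control (-0.0997) and lens-induced minus 0D (0.0126), mmu-miR-1a-3p for cornea minus choroid (-0.0292) and mmu-miR-133b-3p for retina minus SCN (0.29). Without the lens tissue, cornea minus iris was -0.0454 for mmu-miR-133a-3p and -0.11 for mmu-miR-133b-3p. Without the sclera, lens-induced minus 0D was 0.0082 for mmu-miR-133a-3p. Without 1 slide, cornea minus choroid for mmu-miR-1a-3p ranged from -0.0364 (without 0D) to 0.34, and cornea minus iris from -0.32 to 0.0287 (without control).

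With the printed totals, mmu-miR-133a-3p turned for lens-induced minus control (-0.49), 0D minus control (-0.41), cornea minus sclera (3.02), retina minus sclera (0.21), sclera minus LGN (-1.61), cornea minus choroid (3.89) and iris minus LGN (-3.12). For mmu-miR-133b-3p, 0D minus control (-0.19), lens-induced minus 0D (0.27), cornea minus sclera (2.64), sclera minus SCN (-1.57), sclera minus LGN (-0.19), cornea minus choroid (3.57), iris minus LGN (-1.74), SCN minus LGN (1.38) and the log2 ratio of lens-induced to control in the SCN (0.10) turned. For mmu-miR-1a-3p, cornea minus sclera (0.34), iris minus sclera (0.55), choroid minus sclera (0.42) and cornea minus choroid (-0.0874) turned.

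Over all miRNAs, the number called for 0D minus control was 2 and ranged from 0 to 13, for lens-induced minus 0D it was 1 and ranged from 0 to 26, both highest without scaling (normexp gave 12 for the latter, and leaving out the lens or the sclera 6 or 4), and for the sclera contrast it was 193 and 121 with the printed totals. Lens groups were paired by tissue in each of these comparisons, and without the cornea, chosen after the data were seen, the mean paired differences of mmu-miR-1a-3p were 0.14, 0.35 and -0.21 for lens-induced minus control, 0D minus control and lens-induced minus 0D. The 75th percentile over all miRNAs was not run, since it was not above 0 on 1 array, nor were the values of the deposited table. Normexp used median spot signals. Signals of mmu-miR-206-3p, and of the members in the SCN, lie near the detection limit, which limits what differences there can show.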
